A study of Mus musculus with 40 samples.

Results

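Cytosolic ribosomal protein genes encode the proteins of the ribosome that translates nuclear messages. They were taken as every gene symbol made of Rpl or Rps and a number, with at most 1 of the suffix letters a, x, y or l, together with Rpsa, Rplp0, Rplp1 and Rplp2. This rule found 80 genes among the 23228 symbols that all files list, 48 of the large subunit and 32 of the small. RNA was measured by RNA-seq in mouse embryonic stem cells, 2 libraries in each of 4 groups: GLP 3A with retinoic acid (RA), wild type (WT) with RA, GLP 3A untreated and WT untreated. GLP 3A cells are homozygous for a mutation of GLP, the histone H3 lysine 9 methyltransferase encoded by Ehmt1, and the series asks about the part of GLP in propagating histone marks. All groups carry the strain label C57BL/6 (mixed), and all cells were grown on feeders with serum and LIF and then passaged without feeders in 2i, a medium with inhibitors of differentiation. Treated cells received 1 uM all-trans RA, which makes stem cells differentiate, while LIF was taken away, so that RA and the loss of LIF cannot be told apart here.

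The protocol of other samples of the series states that the mutant allele was made in R1 stem cells and carried through mice crossed to C57BL/6. The labels say neither how many lines or clones stand for each genotype nor how long RA was applied. Nothing says that the 2 libraries of a group came from separate cultures, so p-values reflect the scatter among these libraries alone, which may be technical.

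Ribosomal proteins are among the most abundant products of growing cells, and their genes are known to be expressed together so that subunits assemble in matched amounts. Their messages begin with a run of pyrimidines, the terminal oligopyrimidine motif, through which mTOR signalling and the RNA-binding protein Larp1 control their translation. A few genes have a paralogue with a restricted pattern: Rpl39l and Rpl10l are known from male germ cells and Rpl3l from striated muscle.

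The start sites show what the family shares at the DNA level. RefSeq (GRCm38.p6) had a promoter entry for 59 of the 80 members, each 300 bases long with 250 before the annotated start and 50 after it. A run of at least 8 C or T on the gene's strand, within 50 bases of the start, was found in 50 of the 59 (84.7%), against 39.3% of all 27025 genes in the table and 36.8% of the 9258 genes also tested here. This run length was chosen after the sequences were seen. A counted run may lie before the annotated start, so it need not be part of the message. The core CCGGAAG, which ETS factors such as GABP bind, was found on either strand in 24 of 59 (40.7%), against 9.93% of all genes and 19.2% of the genes tested. The YY1 core AAGATGG was in 15.3% of the members, against 7.28% of all genes and 8.22% of the genes tested. The E-box CACGTG was in 8.47%, against 8.09% of all genes and 1114 of the 9258 genes tested, and TATAAA in 10.2%, against 15.7% and 9.05%. A match is a description of these letters and not of binding. The windows of 80 bases below run from 50 before to 30 after the start. They are shown for Rpl39l and its parent Rpl39, for the paralogue Rpl10l and for Rpl13a, which had 1 of the largest falls with RA in GLP 3A. Rpl31, lower in GLP 3A, and Rpl26, with the largest RA difference in WT on the tested scale, are also shown. The longest run of C or T in each window is in capitals.
Rpl39l, chr16:10170178-10170257, plus strand: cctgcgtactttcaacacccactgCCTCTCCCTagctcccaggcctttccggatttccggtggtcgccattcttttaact
Rpl39, chrX:37085193-37085272, minus strand: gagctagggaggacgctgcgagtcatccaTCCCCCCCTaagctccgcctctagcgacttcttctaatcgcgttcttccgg
Rpl10l, chr12:66284372-66284451, minus strand: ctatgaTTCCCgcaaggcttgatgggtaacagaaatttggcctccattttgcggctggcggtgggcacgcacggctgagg
Rpl13a, chr7:45128716-45128795, minus strand: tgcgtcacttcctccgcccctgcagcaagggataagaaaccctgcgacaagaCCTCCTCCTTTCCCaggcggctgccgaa
Rpl31, chr1:39367801-39367880, plus strand: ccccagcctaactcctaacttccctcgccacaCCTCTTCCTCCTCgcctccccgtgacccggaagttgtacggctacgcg
Rpl26, chr11:68901516-68901595, plus strand: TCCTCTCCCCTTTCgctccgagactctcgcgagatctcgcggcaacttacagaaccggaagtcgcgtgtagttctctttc
The longest run was 14 bases in Rpl13a and Rpl26, 13 in Rpl31, 9 in both Rpl39l and Rpl39 and 5 in Rpl10l. In the same windows of genes not shown it was 6 in Rpl10, the parent of Rpl10l, 6 in Rpl24 and 7 in Rpl37a. These windows end 30 bases after the start. Within 50 bases of it Rpl10 and Rpl37a did have a run of at least 8, and Rpl24 did not. Of the runs in capitals, only that of Rpl13a began after the annotated start. Rpl10l had no ETS core in its 300 bases, nor had Rpl10, Rpl13a, Rpl24 or Rpl37a, and Rpl39l had 2. CG pairs numbered 17 in Rpl39l and 17 in Rpl39, 13 in Rpl10l and 3 in Rpl3l, beside a median of 21 in the 59 members and 22 in the genes tested.

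Values are RPKM, reads scaled by the length of the gene and by the mapped reads of the library. The files hold no counts, which leaves the depth of each library unknown. RPKM summed to 509341 and 513354 in RA-treated GLP 3A, 529706 and 554854 in RA-treated WT, 822877 and 772615 in untreated GLP 3A and 748556 and 762180 in untreated WT. The stem cell label was met by 8 markers (Pou5f1, Nanog, Sox2, Zfp42, Klf4, Esrrb, Tdgf1 and Dppa5a), which summed to 4298 to 5259 RPKM in untreated libraries. Ehmt1, the gene of the mutation, stood at 13.0 and 13.9 RPKM in RA-treated GLP 3A against 24.4 and 23.5 in RA-treated WT, and at 14.1 and 14.3 in untreated GLP 3A against 18.4 and 17.6 in untreated WT. It was lower in GLP 3A with RA (log2 difference -0.79 ± 0.07, SE, limma adjusted p = 0.0041) and without (-0.32 ± 0.07, adjusted p = 0.0334). The call without RA ended when any of the 4 untreated libraries was left out (highest adjusted p = 0.195), and the RNA level does not show that the mutation is present.

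The 80 genes spanned a wide range of levels. Rpl41, a very short protein of the large subunit, was highest with a mean of 7634 RPKM over the 8 libraries, between 5590 and 9337. It was followed by the stalk protein gene Rplp1 (2196 to 5378 RPKM) and Rps28 (3079 to 4429), and these ranges overlapped. Below Rpl30 (82.3 to 275.9 RPKM) came Rpl26 (21.1 to 97.5), Rps15a (27.1 to 51.4) and the paralogues Rpl39l (0.183 to 6.43), Rpl10l (0.157 to 4.68) and Rpl3l (0.0485 to 1.03). Of the 100 highest genes in each library, 49 and 54 were members in RA-treated GLP 3A, 52 and 54 in RA-treated WT, 45 and 48 in untreated GLP 3A and 49 and 49 in untreated WT. The order of levels was kept between groups, with Spearman's rho from 0.979 to 0.985 over 77 genes (without Rpl39l, Rpl10l and Rpl3l), a description in which the points share gene length and annotation. Ribosomal protein genes have many near-identical processed copies, and the sources used here do not say how reads shared with them were assigned. In the files 32 members also share a locus with another symbol, in 22 cases only short RNA genes, since their introns host many small nucleolar RNAs. Levels of single members are uncertain for both reasons.

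**Figure D1:**
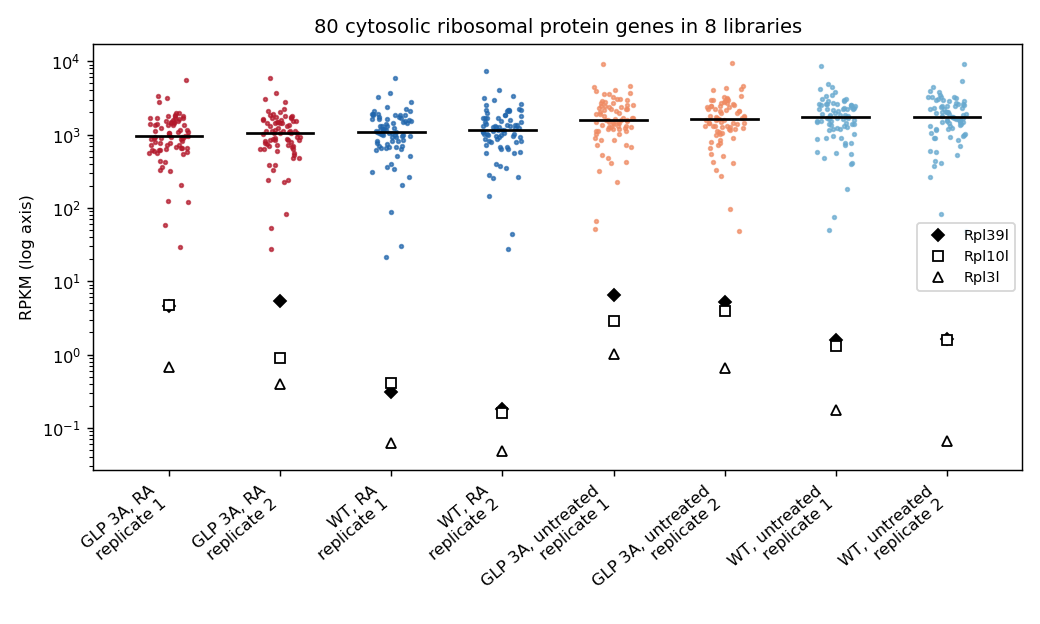
RPKM on a log axis of the 80 ribosomal protein genes in each of the 8 libraries. Coloured points are 77 genes with their median as a black line, and black or open symbols are Rpl39l, Rpl10l and Rpl3l. The bulk of the genes lies near 1000 RPKM, with lower medians in the 4 RA-treated libraries as deposited, while the 3 paralogues lie below 10 RPKM.

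With RA the ribosomal protein genes were lower as a block in both genotypes on the deposited scale. Under quantile normalization their median was above 0 instead. The median of the tested members was 937 and 1038 RPKM in RA-treated GLP 3A against 1567 and 1598 in untreated GLP 3A, and 1074 and 1154 in RA-treated WT against 1700 and 1672 in untreated WT. Both RA libraries lay below both untreated libraries for 77 of the 79 tested members in GLP 3A, where 45.6% of all genes tested did so, and for 78 of 79 in WT, where 44.0% did. They lay above for 0 members, against 39.2% of all genes in GLP 3A and 41.7% in WT. The test was limma on log2(RPKM + 1), run across all 13198 genes that reached 1 RPKM in 2 or more libraries, and calls were made at a Benjamini-Hochberg adjusted p below 0.05. The pseudocount of 1 makes the change of low genes look smaller. The filter left 79 members and dropped Rpl3l, which reached 1 RPKM in a single library. In GLP 3A 75 of 79 were called lower and 0 higher, where 38.1% of all genes were called lower and 32.3% higher (70.4% in all). In WT 72 of 79 were called lower and 0 higher, where 34.8% of all genes were called lower and 33.7% higher (68.5% in all). At an unadjusted p under 0.05 the counts were 75 lower in GLP 3A (39.3% of all genes) and 73 in WT (36.3% of all genes), and 0 higher in both. The median log2 difference was -0.70 in GLP 3A and -0.60 in WT, beside -0.07 and -0.03 over all genes tested. In group means of RPKM this was a median ratio of RA to untreated of 0.616 in GLP 3A (0.408 to 0.811 over 77 genes) and 0.659 in WT (0.41 to 0.865).

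**Figure D2:**
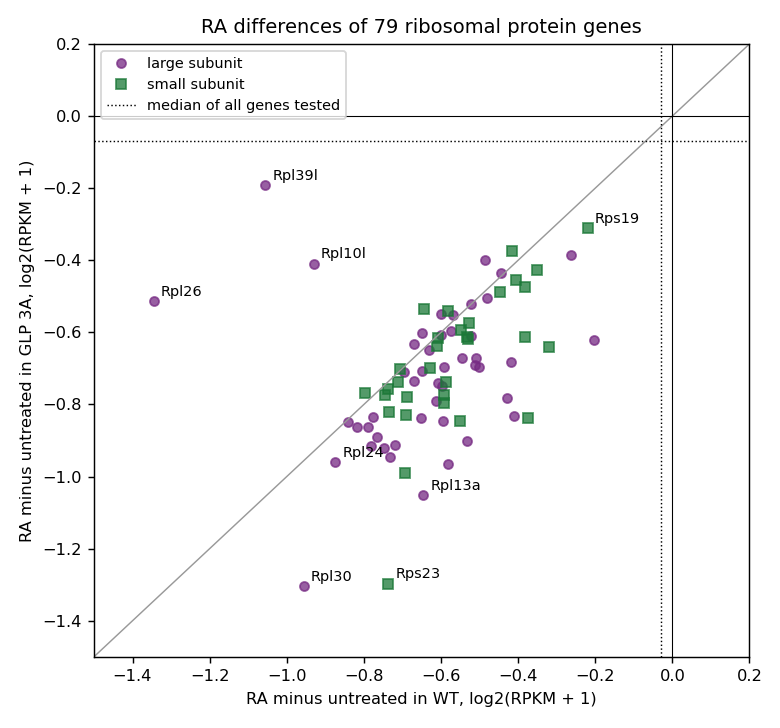
RA minus untreated on the log2(RPKM + 1) scale as deposited, WT on the horizontal and GLP 3A on the vertical axis, for the 79 tested members. All 79 lie below 0 on both axes, whereas under quantile normalization the medians are above 0. The grey line marks equal differences and the dotted lines the medians of all genes tested.

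The size of the fall depended on the scaling between libraries. Against the median of all genes, the members were lower by -0.63 in GLP 3A and -0.57 in WT as deposited, and by -0.63 and -0.57 with median-of-ratios scaling. When each library was set to the same sum of RPKM, the median of all genes moved to 0.47 in GLP 3A and 0.37 in WT, and the members lay at -0.06 and -0.12, still -0.53 and -0.50 from it. All 79 members lay below the median of all genes in each of these scalings. The counts at the same sum were 1 higher and 7 lower in GLP 3A and 1 higher and 10 lower in WT. Of all 13198 genes tested, 7355 were called higher and 1966 lower in GLP 3A at the same sum, and 6796 and 2202 in WT. With quantile normalization, which gives each library the same values by rank, the median was 0.15 in GLP 3A (20 higher, 3 lower) and 0.07 in WT (10 higher, 3 lower). Of all 13198 genes, quantile normalization gave 4145 called higher and 4556 lower in GLP 3A, and 4061 and 4576 in WT. Members hold 45 to 54 of the 100 highest ranks in each library, and this method gives equal values to equal ranks.

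**Figure D3:**
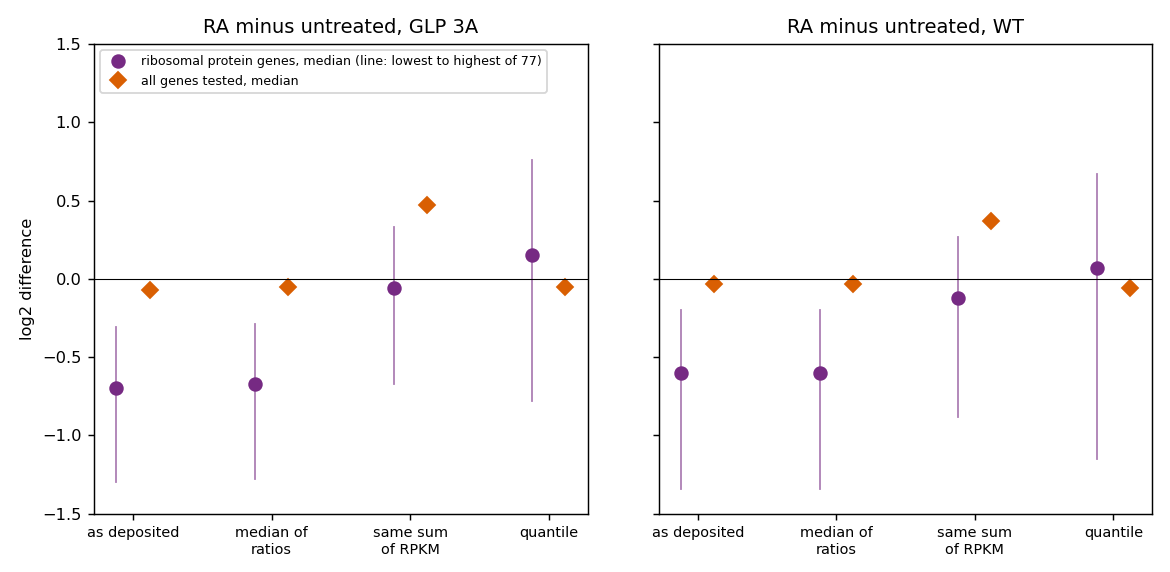
Median log2 RA difference of the ribosomal protein genes (circles, with a line from the lowest to the highest of 77) and of all genes tested (diamonds) in GLP 3A and WT under 4 scalings. The members lie below all genes in 3 of them, and above under quantile normalization, where their median is 0.15 in GLP 3A and 0.07 in WT.

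The share of summed RPKM held by the members is not changed by a factor applied to a whole library. It amounts to setting each library to the same sum of RPKM, and so is not separate evidence. The share was 17.2% and 17.9% in RA-treated GLP 3A against 17.8% and 18.8% in untreated GLP 3A. In WT it was 18.4% and 19.0% with RA against 19.8% and 19.9% untreated. The libraries of the WT groups did not overlap, and those of the GLP 3A groups did. Short RNA genes, many of them hosted in ribosomal protein introns, summed to 39907 to 55062 RPKM with RA and 134465 to 177321 without. With those genes left out of the sum, the share was 19.2% and 19.4% in RA-treated GLP 3A against 22.7% and 22.9% in untreated GLP 3A. In WT it was 20.5% and 20.9% with RA against 24.1% and 24.6% untreated, so that the groups no longer overlapped in either genotype. No test was made of these shares.

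Genes of both subunits were lower with RA as deposited, and under quantile normalization both medians were above 0, for the large subunit 0.11 in GLP 3A and 0.02 in WT, and for the small 0.24 and 0.15. Of 47 large subunit genes 44 were called lower in GLP 3A (median -0.71) and 43 in WT (-0.61). Of 32 small subunit genes 31 were called lower in GLP 3A (median -0.67) and 29 in WT (-0.59). The summed RPKM of the large subunit was 1.32 and 1.40 times that of the small in RA-treated GLP 3A against 1.42 and 1.43 in untreated GLP 3A, and 1.36 and 1.39 in RA-treated WT against 1.40 in both untreated WT libraries.

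On the log2(RPKM + 1) scale the largest RA differences belonged to members of modest level, Rps23 and Rpl30 in GLP 3A and Rpl26 in WT. As a ratio of RPKM the low paralogues fell further in WT. Group means went from 1.59 untreated to 0.247 with RA for Rpl39l and from 1.44 to 0.285 for Rpl10l. Rps23, a protein of the decoding site, stood at 125.4 and 223.2 RPKM in RA-treated GLP 3A against 414.6 and 410.2 in untreated GLP 3A (-1.30 ± 0.28, limma adjusted p = 0.0057). In WT it stood at 204.5 and 282.6 with RA against 390.3 and 412.5 untreated (-0.74 ± 0.28, adjusted p = 0.0514) and was not called. The groups did not overlap in either genotype, and the RA libraries differed among themselves far more than the untreated ones.

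Rpl30, which is known to regulate its own message in yeast, stood at 121.6 and 82.3 RPKM in RA-treated GLP 3A against 224.0 and 275.9 in untreated GLP 3A (-1.30 ± 0.32, limma adjusted p = 0.0108), and at 87.0 and 147.4 in RA-treated WT against 182.3 and 267.1 in untreated WT (-0.96 ± 0.32, adjusted p = 0.0366). Rpl26, known as a translational regulator of p53, stood at 21.1 and 43.4 RPKM in RA-treated WT against 74.7 and 82.5 in untreated WT (-1.34 ± 0.33, adjusted p = 0.0111), and at 58.3 and 53.7 in RA-treated GLP 3A against 66.2 and 97.5 in untreated GLP 3A (-0.51 ± 0.33, adjusted p = 0.209, not called). The libraries of a group lay far apart for both genes. The call of Rpl26 ended without untreated WT replicate 2 (adjusted p = 0.0574). That of Rpl30 in WT ended without RA-treated WT replicate 1, untreated WT replicate 2 or either untreated GLP 3A library (up to 0.182), and in GLP 3A without RA-treated or untreated GLP 3A replicate 2 (up to 0.0607).

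Rpl24, which helps bridge the subunits, had one of the tightest falls, at 592.6 and 643.1 RPKM in RA-treated GLP 3A against 1195 and 1209 in untreated GLP 3A (-0.96 ± 0.09, limma adjusted p = 0.000167) and 687.9 and 728.5 in RA-treated WT against 1358 and 1241 in untreated WT (-0.87 ± 0.09, adjusted p = 0.000257). Rpl13a, known for the silencing of inflammatory messages, stood at 1549 and 1724 RPKM in RA-treated GLP 3A against 3563 and 3223 in untreated GLP 3A (-1.05 ± 0.12, adjusted p = 0.00037), and changed by -0.65 ± 0.12 in WT (adjusted p = 0.0033). Rps2 changed by -0.99 ± 0.12 in GLP 3A (adjusted p = 0.00048) and by -0.69 ± 0.12 in WT (adjusted p = 0.00238). All 3 kept these calls in each fit without a library. Under quantile normalization Rpl24 was at -0.11 in GLP 3A and -0.09 in WT without a call, and Rps2 turned to 0.05 and 0.06.

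The stalk of the large subunit, which recruits translation factors, is made of Rplp0, Rplp1 and Rplp2. Rplp0 was lower with RA by -0.92 ± 0.10 in GLP 3A (limma adjusted p = 0.000316) and -0.75 ± 0.10 in WT (adjusted p = 0.000821), and Rplp2 by -0.60 ± 0.09 (adjusted p = 0.000959) and -0.65 ± 0.09 (adjusted p = 0.000724). Rplp1 stood at 2814 and 2196 RPKM in RA-treated GLP 3A against 4542 and 4312 in untreated GLP 3A (-0.83 ± 0.15, adjusted p = 0.00272), and at 3714 and 4041 in RA-treated WT against 4924 and 5378 in untreated WT (-0.41 ± 0.15, adjusted p = 0.047). The WT call of Rplp1 was kept in 2 of 8 fits without a library, those without an RA-treated GLP 3A library. Rpsa, which doubles as a laminin receptor, changed by -0.45 ± 0.12 in GLP 3A (adjusted p = 0.0119) and -0.41 ± 0.12 in WT (adjusted p = 0.0194). Rps27a, made as a fusion with ubiquitin, changed by -0.43 ± 0.11 in GLP 3A (adjusted p = 0.0149) and -0.35 ± 0.11 in WT (adjusted p = 0.033). The calls of Rpsa ended without either untreated GLP 3A library (GLP 3A) and without RA-treated WT replicate 2 or either untreated WT library (WT). Those of Rps27a ended without replicate 1 of RA-treated GLP 3A or either untreated GLP 3A library (GLP 3A), and without replicate 1 of RA-treated or untreated WT or either untreated GLP 3A library (WT).

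Members not called lower were few. In GLP 3A they were Rpl10l, Rpl39l, Rpl26 and Rps19. In WT they included Rpl10l, Rpl23, Rpl28, Rps19, Rps23 and Rps26. Rps19, a small subunit protein, stood at 663.1 and 567.5 RPKM in RA-treated WT against 723.9 and 704.5 in untreated WT, and so lay lower in the RA libraries without passing the test. With each library scaled to the same median of the ribosomal protein genes, a difference is one relative to the family. On that scale 6 were called higher and 6 lower in GLP 3A, and 4 higher and 2 lower in WT. The median of all genes tested lay at 0.51 in GLP 3A and 0.47 in WT there, and the share of all genes called is not given here. In WT the higher ones included Rpl23 (0.34), Rps15 (0.28) and Rps27a (0.25), and the lower ones Rpl39l (-0.79) and Rpl24 (-0.28). In GLP 3A the higher ones were Rpl39l (0.38), Rps28 (0.31), Rpl23 (0.30), Rpl19 (0.28), Rps27a (0.25) and Rpl23a (0.25), and the lower ones were Rps23 (-0.62), Rpl13a (-0.37), Rpl24 (-0.28), Rpl35a (-0.26), Rpl7 (-0.23) and Rpl14 (-0.21). These genes were named after their values were seen.

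Genes that work with the ribosome were mostly lower too as deposited. Fau, a ubiquitin-like fusion with a small subunit protein, changed by -0.77 ± 0.08 in GLP 3A (limma adjusted p = 0.000286) and -0.68 ± 0.08 in WT (adjusted p = 0.000525). Under quantile normalization Fau turned to 0.19 in GLP 3A and 0.07 in WT. Rpl22l1, a paralogue of Rpl22 that the naming rule leaves out, changed by -1.57 ± 0.11 in GLP 3A (adjusted p = 5.58e-05) and -1.06 ± 0.11 in WT (adjusted p = 0.00026). Of 14 tested genes of RNA polymerase I transcription, which makes ribosomal RNA, 14 were called lower in each genotype (medians -0.95 in GLP 3A and -0.76 in WT). They include Rrn3, which brings the polymerase to its promoter, at 32.2 and 30.8 RPKM in RA-treated GLP 3A against 101 and 100 in untreated GLP 3A, and at 34.1 and 34.2 in RA-treated WT against 107 and 97.5 in untreated WT. Its changes were -1.64 ± 0.07 in GLP 3A (adjusted p = 1.12e-05) and -1.55 ± 0.07 in WT (adjusted p = 1.2e-05). Under quantile normalization 12 of the 14 were called lower in GLP 3A and 13 in WT (medians -0.77 and -0.70), and at the same sum of RPKM 8 in each, with 1 higher in GLP 3A.

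Of 61 ribosome assembly genes 60 were called lower in each genotype, with medians of -1.15 in GLP 3A and -0.96 in WT. Rrp9, which binds the U3 small nucleolar RNA, changed by -1.85 ± 0.08 in GLP 3A (limma adjusted p = 1.27e-05) and -1.78 ± 0.08 in WT (adjusted p = 1.31e-05). The uncalled gene was the kinase gene Riok1 in both (-0.23 in GLP 3A and -0.16 in WT). Under quantile normalization 58 and 59 of the 61 were called lower (medians -0.76 and -0.70), and at the same sum of RPKM 44 and 47 (-0.52 and -0.49), so the assembly genes were lower under scalings that turned or removed the fall of the ribosomal proteins themselves. Of 18 translation factors and partners whose messages carry the same pyrimidine motif, 15 were called lower in GLP 3A and 13 in WT, with medians of -0.71 and -0.51. Pabpc1, the poly(A)-binding protein gene, changed by -1.36 ± 0.08 and -1.24 ± 0.08 (adjusted p = 2.72e-05 and 3.55e-05). Tpt1 (0.02 ± 0.13 in GLP 3A and 0.33 ± 0.13 in WT) and Hnrnpa1 (-0.33 ± 0.16 and 0.40 ± 0.16) were not called in either genotype as deposited. Both depended on the scaling. Tpt1 was called higher under quantile normalization (1.21 in GLP 3A and 1.16 in WT) and at the same sum of RPKM (0.66 and 0.81), and Hnrnpa1 was called higher in WT under both (0.82 and 0.88). In WT Tpt1 was also called higher with a filter of 5 RPKM, with median-of-ratios scaling and without an intensity trend. Under quantile normalization the median of the 18 was -0.15 in GLP 3A (4 higher, 3 lower) and 0.02 in WT (5 higher, 3 lower). Of 76 mitochondrial ribosomal protein genes 60 were called lower and 0 higher in GLP 3A, and 53 lower and 4 higher in WT, with medians of -0.70 and -0.50, which under quantile normalization were -0.33 and -0.30 and at the same sum of RPKM -0.07 and -0.04. Mrpl15 changed by -1.75 ± 0.09 and -1.53 ± 0.09 (adjusted p = 1.99e-05 and 2.96e-05), while Mrpl41 was at 0.07 ± 0.14 in GLP 3A and rose by 0.60 ± 0.14 in WT (adjusted p = 0.00965, ended without untreated WT replicate 1 or RA-treated WT replicate 2).

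Among 18 regulators of ribosomal protein synthesis, 9 were called lower and 1 higher in GLP 3A and 11 lower and 1 higher in WT, with a median of -0.33 in both, which turned to 0.29 and 0.12 at the same sum of RPKM. Eif4ebp1, a translation repressor that mTOR switches off, changed by -1.64 ± 0.12 in GLP 3A (limma adjusted p = 7.43e-05) and -1.21 ± 0.12 in WT (adjusted p = 0.000246). Mycn, a Myc family activator of ribosome genes, stood at 11.5 and 16.5 RPKM in RA-treated GLP 3A against 101 and 93.1 in untreated GLP 3A, and at 31.5 and 27.2 in RA-treated WT against 53.2 and 48.5 in untreated WT. It changed by -2.73 ± 0.17 in GLP 3A (adjusted p = 3.52e-05) and by -0.77 ± 0.17 in WT (adjusted p = 0.00602), and the difference of these responses was -1.95 ± 0.23 (adjusted p = 0.0238). That call was kept in 2 of 8 fits without a library, those without an RA-treated GLP 3A library, and otherwise ended, with adjusted p up to 0.161.

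Markers of the cell state moved with all these RA differences. The 8 stem cell markers summed to 376 and 174 RPKM in RA-treated GLP 3A and 253 and 139 in RA-treated WT, against 4337 and 4298 in untreated GLP 3A and 5178 and 5259 in untreated WT. The 8 fibroblast markers summed to 76.6 and 121 RPKM in RA-treated GLP 3A and 103 and 108 in RA-treated WT, against 4.63 and 6.07 in untreated GLP 3A and 4.01 and 4.53 in untreated WT, where Lum was listed at 0 in all 4. The sums are carried by the collagens, and Thy1 went the other way, at 1.36 and 0.866 RPKM in RA-treated GLP 3A and 0.945 and 1.10 in RA-treated WT, against 3.46 and 3.42 in untreated GLP 3A and 3.20 and 3.17 in untreated WT (-1.08 ± 0.13 in GLP 3A and -1.05 ± 0.13 in WT, limma adjusted p = 0.000469 and 0.000563). Their part in the fall of the ribosomal protein genes was not tested. In these bulk samples fewer cells of a type and less RNA per cell cannot be told apart.

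Between the genotypes few members were called. In GLP 3A cells Rpl7 was lower with RA and untreated, Rpl31 and Rplp1 were lower with RA, and Rpl39l was higher in both states. With RA, 3 of 79 members were called lower in GLP 3A and 1 higher, where 5.31% of all genes were called lower and 5.3% higher (10.6% in all). Untreated, 1 was called lower and 1 higher, where 4.15% of all genes were called lower and 7.52% higher. The median log2 difference of the members was -0.18 with RA and -0.06 untreated, beside -0.01 and 0.04 over all genes. Of the 79, 67 lay below the median of all genes with RA and 59 untreated. With RA both GLP 3A libraries lay below both WT libraries for 44 of 79 members and above for 6, where 27.2% of all genes tested lay below and 24.1% above. Untreated they lay below for 38 and above for 17, where 27.7% of all genes lay below and 40.3% above. With RA the median was -0.02 under quantile normalization and -0.21 with median-of-ratios scaling.

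Rpl7, a large subunit protein of chromosome 1, stood at 710.1 and 819.7 RPKM in RA-treated GLP 3A against 1141 and 1283 in RA-treated WT, and at 1438 and 1441 in untreated GLP 3A against 2141 and 2020 in untreated WT. It was lower in GLP 3A with RA (-0.66 ± 0.11, limma adjusted p = 0.022) and untreated (-0.53 ± 0.11, adjusted p = 0.0317). Rpl31, on the same chromosome (39424695 to 39535592, build mm9), had values of 651.2 and 717.9 RPKM in RA-treated GLP 3A against 947.9 and 1154 in RA-treated WT, and at 1112 and 1096 in untreated GLP 3A against 1472 and 1513 in untreated WT. It was called lower with RA (-0.61 ± 0.12, adjusted p = 0.0298) and at -0.43 ± 0.12 untreated was not (adjusted p = 0.0621), and its listed locus overlaps that of Tbc1d8. In both states the genotypes did not overlap for either gene.

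The third member on chromosome 1, Rpl37a, was at -0.42 ± 0.11 with RA (limma adjusted p = 0.0614) and -0.41 ± 0.11 untreated (adjusted p = 0.0621), and was named after its values were seen. Rplp1, on chromosome 9, was called lower with RA (-0.64 ± 0.15, adjusted p = 0.047) and not untreated (-0.22 ± 0.15, adjusted p = 0.404). These calls were not stable against single libraries. With RA, Rpl7 was kept in 1 of 8 fits without a library, Rplp1 in 1 and Rpl31 in 2, with adjusted p up to 0.0809, 0.154 and 0.0839. Untreated, Rpl7 lost its call without any of the 4 untreated libraries (adjusted p up to 0.181). With only the 4 libraries compared in the fit, 0 of the 79 were called with RA in either direction, and 4 higher and 4 lower untreated. The share of all genes called in these fits is not given here. With RA, Ehmt1 also lost its call in that fit at the same difference (-0.79, limma adjusted p = 0.144), so lost calls were not limited to the members.

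Position on the chromosome went with the sign of the genotype difference. The 3 members on chromosome 1 lay between -0.66 and -0.42 with RA (median -0.61) and between -0.53 and -0.41 untreated (median -0.43). The 7 on chromosome 11 (Rpl19, Rpl23, Rpl23a, Rpl26, Rpl27, Rpl38 and Rps27a) lay between 0.01 and 0.86 with RA (median 0.18) and between 0.03 and 0.38 untreated (median 0.22), all positive as deposited, though 1 of the 7 turned slightly negative with median-of-ratios scaling in each state and with quantile normalization or equal sums untreated. The 69 on other chromosomes had medians of -0.19 with RA and -0.07 untreated. The other genes of chromosome 1 showed medians of -0.31 with RA and -0.24 untreated (707 genes), those of chromosome 11 0.24 and 0.24 (1107 genes), and those elsewhere -0.02 and 0.04. The members thus lay on the side of their neighbours on both chromosomes. This grouping was made with the chromosome pattern of all genes known.

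**Figure D4:**
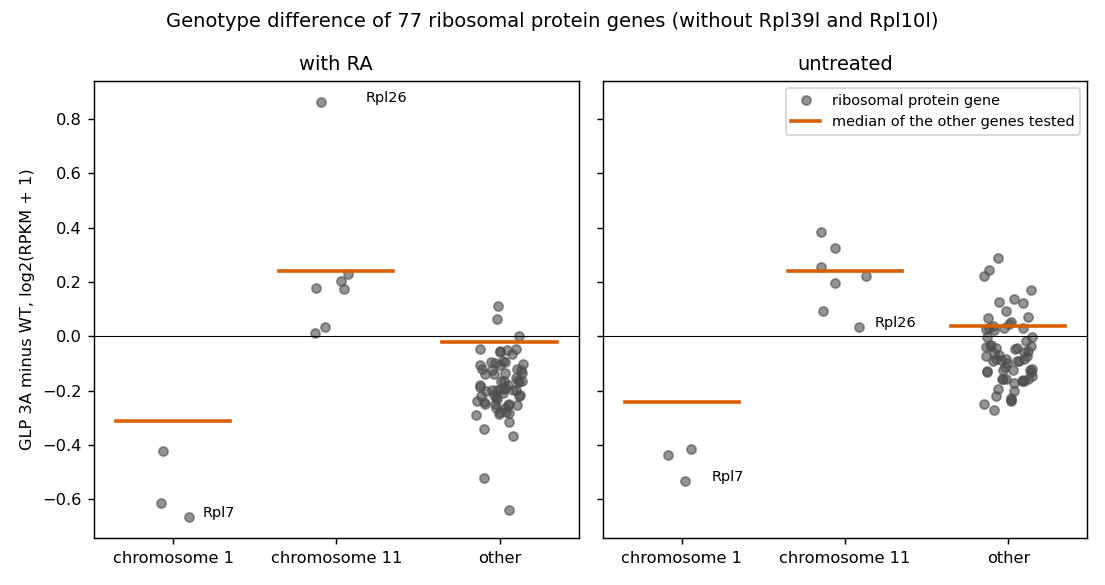
GLP 3A minus WT on the log2(RPKM + 1) scale with RA (left) and untreated (right) for 77 ribosomal protein genes by chromosome (points), with the median of the other genes tested on the same chromosomes (orange lines). The 3 members on chromosome 1 lie below 0 and the 7 on chromosome 11 above it as deposited in both states, with 1 of the 7 slightly below 0 under median-of-ratios scaling and, untreated, under quantile normalization or equal sums.

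On chromosome 11, Rpl23 stood at 1210 and 1448 RPKM in RA-treated GLP 3A against 1054 and 1254 in RA-treated WT, which overlap, and at 1704 and 1752 in untreated GLP 3A against 1411 and 1346 in untreated WT, which do not. Relative to the family median, Rpl23 was called higher in GLP 3A with RA (0.38) and untreated (0.42), and so was Rpl23a with RA (0.41). Rpl7 (-0.49) and Rpl31 (-0.44) were called lower with RA on that scale, and Rpl7 untreated (-0.44). Apart from the paralogues Rpl39l and Rpl10l, Rpl26 was the member farthest from the rest with RA, at 58.3 and 53.7 RPKM in GLP 3A against 21.1 and 43.4 in WT (0.86), and was not called (limma adjusted p = 0.148).

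Among the 79 tested members, 68 lay below 0 in the genotype comparison with RA and 52 untreated. Rpl39l had the largest difference of them in both states, higher in GLP 3A. This paralogue of Rpl39, a small protein that lines the exit tunnel of the ribosome, lies on chromosome 16 (10170320 to 10175004, build mm9). Its levels were 4.61 and 5.32 RPKM in RA-treated GLP 3A against 0.310 and 0.183 in RA-treated WT, and 6.43 and 5.22 in untreated GLP 3A against 1.57 and 1.61 in untreated WT. The genotypes were far apart in both states, and no library of one reached the other. It was called higher in GLP 3A with RA (2.26 ± 0.12, limma adjusted p = 0.00106) and untreated (1.39 ± 0.12, adjusted p = 0.00281), in all 8 fits without a library for each. With only the 4 RA libraries in the fit it was 2.26 without a call (adjusted p = 0.0573). Its parent Rpl39, on the X chromosome, stood at 1170 and 1310 RPKM in RA-treated GLP 3A against 1312 and 1337 in RA-treated WT, and at 1981 and 2076 in untreated GLP 3A against 2255 and 2044 in untreated WT. Rpl39 was at -0.10 ± 0.10 with RA and -0.08 ± 0.10 untreated, neither called (adjusted p = 0.569 and 0.676).

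With RA, Rpl39l was lower in WT (-1.06 ± 0.12, limma adjusted p = 0.000467) and was not called in GLP 3A (-0.19 ± 0.12, adjusted p = 0.212). In GLP 3A it was called lower under quantile normalization (-0.39) and turned to 0.35 at the same sum of RPKM and to 0.38 relative to the family median, both called higher. The difference of these responses was 0.86 ± 0.18 with an adjusted p of 0.0704, so a different response was not called. It was called with a pseudocount of 0.1 (2.09, adjusted p = 0.0452) and at the same sum of RPKM (1.21, adjusted p = 0.0408).

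**Figure D5:**
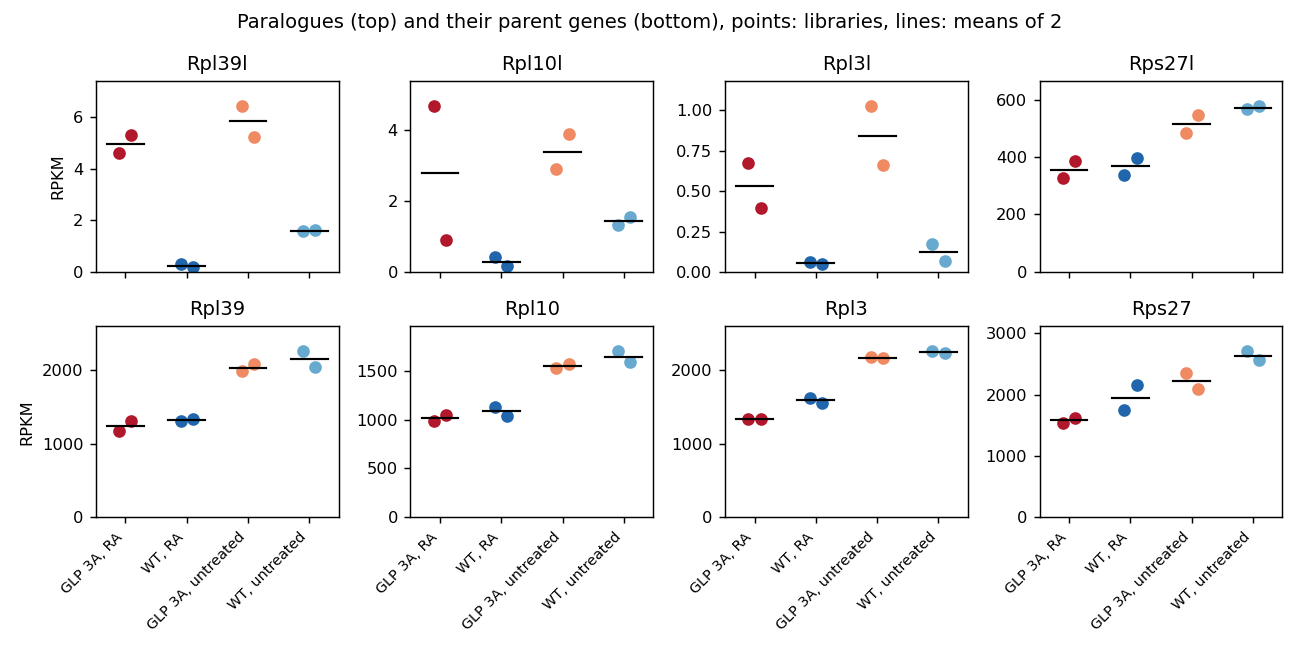
RPKM of 4 paralogues (top) and their parents (bottom) in the 4 groups, each point a library and each line the mean of 2, axes from 0. Rpl39l is higher in GLP 3A than in WT with and without RA, while the parents and Rps27l are lower with RA in both genotypes as deposited, which quantile normalization turned for all 4 parents and for Rps27l in GLP 3A.

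The other low paralogues also stood higher in GLP 3A, with less certainty. Rpl10l, a retrocopy of Rpl10 on chromosome 12, stood at 4.68 and 0.903 RPKM in RA-treated GLP 3A against 0.413 and 0.157 in RA-treated WT, and at 2.89 and 3.90 in untreated GLP 3A against 1.32 and 1.56 in untreated WT. The genotypes did not overlap in either state, yet the RA-treated GLP 3A libraries were far apart, and neither difference was called (1.36 ± 0.47, limma adjusted p = 0.119 with RA, and 0.84 ± 0.47, adjusted p = 0.308 untreated). The library with 4.68 RPKM is also the one with more of the stem cell markers, 376 against 174 RPKM, and their part was not tested. In a fit of the 4 untreated libraries alone Rpl10l was called higher in GLP 3A (adjusted p = 0.0249), and without RA-treated GLP 3A replicate 1 its difference with RA was 0.57.

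Rpl3l, on chromosome 17, stood at 0.674 and 0.393 RPKM in RA-treated GLP 3A against 0.0616 and 0.0485 in RA-treated WT, and at 1.03 and 0.659 in untreated GLP 3A against 0.173 and 0.0671 in untreated WT. It was below the filter, so it was not tested. Both GLP 3A libraries lay above both WT libraries in each state. The ordinary paralogue Rps27l, a known p53 target, did not share this pattern. It stood at 326.2 and 384.6 RPKM in RA-treated GLP 3A against 336.8 and 397.8 in RA-treated WT, and at 484.3 and 544.8 in untreated GLP 3A against 566.6 and 577.8 in untreated WT. With RA it changed by -0.53 ± 0.12 in GLP 3A (limma adjusted p = 0.00822) and -0.64 ± 0.12 in WT (adjusted p = 0.00391), beside -0.49 ± 0.13 and -0.45 ± 0.13 for Rps27 (adjusted p = 0.0156 and 0.0226). The parents Rpl10 (-0.61 ± 0.09 in GLP 3A and -0.60 ± 0.09 in WT) and Rpl3 (-0.70 ± 0.08 and -0.50 ± 0.08) were called lower too, with adjusted p from 0.000452 to 0.00201. Without a single library the calls of Rps27 ended without replicate 1 of RA-treated or untreated GLP 3A (GLP 3A) and without RA-treated WT replicate 1 or either untreated WT library (WT), and that of Rps27l in GLP 3A ended without untreated GLP 3A replicate 2.

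The genes whose pattern was most like that of Rpl39l were looked for by Pearson's r of log2(RPKM + 1) over the 8 libraries, leaving out symbols of the Gm, Rik and identifier kinds. The 5 highest were Myl4 (0.983), an atrial myosin light chain on chromosome 11, Akap10 (0.983), an anchor of protein kinase A on the same chromosome, Myo7a (0.980) and Trim12a (0.980) on chromosome 7, and Zfp39 (0.976) on chromosome 11. Trim12a stood at 4.26 and 4.87 RPKM in RA-treated GLP 3A against 0.647 and 0.675 in RA-treated WT, and at 7.66 and 6.79 in untreated GLP 3A against 1.77 and 1.52 in untreated WT. Akap10, whose log2 difference between the genotypes was 0.29 with RA and 0.21 untreated, shared the shape over libraries with much smaller differences. These lie near 0.24, the median in each state of the chromosome 11 genes tested outside the family. With 8 libraries in 4 groups such correlations describe the genotype and RA pattern only.

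The response to RA itself was not called different between the genotypes for any of the 79 members by limma, where 0.561% of all genes were called higher and 1.24% lower (1.8% in all). At an unadjusted p under 0.05 the counts were 1 higher and 1 lower, where 7.55% of all genes were higher and 13.4% lower. The median difference of the responses was -0.09, beside -0.06 over all genes. As deposited 64 of 79 values were negative, where 7651 of all 13198 genes were negative. Against the median of all genes, 46 members lay below and 33 above. Under quantile normalization the median of the members was 0.08 and at the same sum of RPKM 0.08. Rpl26 had the largest value after Rpl39l (0.83 ± 0.47, adjusted p = 0.373), and Rps23 had the lowest (-0.56 ± 0.39, adjusted p = 0.464). Rplp1 was at -0.42 ± 0.21 (adjusted p = 0.315).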

How the data were processed

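For each RNA-seq library the authors deposited a table of gene symbols, loci and RPKM values, as the file headers show. Trizol RNA was cleaned of DNA with DNase, per the labels' protocols. Tools named in the submitters' processing notes are TopHat, Cufflinks, SAMtools and Bowtie 0.12.7, and the build is mm9. The sources used here do not say how reads that fit several copies of a gene were handled. RPKM is scaled by gene length and depth, so a group of very abundant genes also shifts the values of the rest.

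Of 40 samples in the series, 32 of chromatin and input DNA were not analysed here. Each file lists 23234 symbols, of which 23228 stand in every file. The test was limma (version 3.58.1, R version 4.3.3) on log2(RPKM + 1), with 4 group means over 8 libraries, an intensity trend, and Benjamini-Hochberg adjustment over the 13198 genes that reached 1 RPKM in 2 or more libraries. Standard errors are the moderated ones and n is 2 libraries per group. The fit was tested on simulated data. There were 5 comparisons: genotype with RA and untreated, RA in each genotype, and the difference of the RA responses.

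The members and gene lists were chosen with earlier results of these data known. Tests are printed for paralogues and their parents, for up to 4 of the largest called changes each way per comparison, for Rpsa, Rplp0, Rplp1, Rplp2 and Rps27a, for Ehmt1, and for up to 2 called genes each way and 2 uncalled genes per list. Other settings were a pseudocount of 0.1, no filter, a filter of 5 RPKM, 4 other scalings, no intensity trend, the replicate number as a block, only the 4 libraries compared, and each library left out. Promoters were taken from RefSeq (GRCm38.p6) by symbol, and 21 members had no entry. Coordinates of genes are those of the files (mm9). A few genes are not reported here by name, though they count in the totals.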

Additional observations from a re-analysis of the deposited data

Results flagged for a closer look

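The RA response of Mycn differed between the genotypes by the interaction test, with a difference of -1.95 on the log2 scale (limma adjusted p = 0.0238). This call was kept in 2 of 8 fits without a library, and it ended without a filter (adjusted p = 0.0618). The RA response of the stem cell marker Zfp42 differed too, by 2.50 ± 0.41 (adjusted p = 0.0463). Zfp42 stood at 13.5 and 6.89 RPKM in RA-treated GLP 3A and 9.31 and 6.32 in RA-treated WT, against 66.4 and 63.2 in untreated GLP 3A and 314 and 290 in untreated WT.

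For Rpl10a, Rpl13a and Rps15 both GLP 3A libraries lay below both WT libraries with RA and above them untreated. The difference between these genotype differences was -0.15 for Rpl10a, -0.41 for Rpl13a and -0.32 for Rps15 as deposited. None of the 3 was called by limma's interaction test (adjusted p = 0.498 for Rpl10a, 0.243 for Rpl13a and 0.303 for Rps15). Rpl13a stood at 1549 and 1724 RPKM in RA-treated GLP 3A against 1848 and 2127 in RA-treated WT, and at 3563 and 3223 in untreated GLP 3A against 3064 and 3143 in untreated WT.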

How the results depend on the processing

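Of the scalings tried, only quantile normalization put the members' median RA difference above 0. The median was -0.70 in GLP 3A and -0.60 in WT for the deposited values. It was -0.67 and -0.60 under median-of-ratios, and -0.06 and -0.12 for equal sums. In each of these settings all 79 members lay below the median of all genes, while the size of the difference moved. Depth is unknown, and which scaling is right for these libraries was not tested. The cause of each change below was not tested. With quantile normalization 20 members were called higher and 3 lower with RA in GLP 3A (median 0.15), and 10 higher and 3 lower in WT (median 0.07). Of all 13198 genes, 4145 were called higher and 4556 lower in GLP 3A, and 4061 and 4576 in WT. At the same sum of RPKM the members' counts were 1 higher and 7 lower in GLP 3A (-0.059) and 1 higher and 10 lower in WT (-0.123). Those of all genes were 7355 and 1966 in GLP 3A and 6796 and 2202 in WT. At the same median of the ribosomal protein genes, where the family is level by construction, the members' counts were 6 and 6 in GLP 3A (-0.018) and 4 and 2 in WT (-0.003). The counts of all genes called at that setting are not given here. With a pseudocount of 0.1, no filter, a filter of 5 RPKM, median-of-ratios scaling, no intensity trend, the replicate block or 4 libraries, the RA counts stayed within 1.5 times those reported. With short RNA genes left out of the sum, the members' share averaged 19.3% in RA-treated GLP 3A and 20.7% in RA-treated WT, against 22.8% in untreated GLP 3A and 24.4% in untreated WT.

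Under 3 scalings genes with printed tests turned sign with RA. With quantile normalization these were in GLP 3A Rpl10 (0.267), Rpl39 (0.248), Rps27 (0.458), Rps27l (0.099), Rpl3 (0.238), Rps2 (0.049), Rplp1 (0.331), Rpsa (0.341), Rplp0 (0.032), Rplp2 (0.122), Rps27a (0.372), Hnrnpa1 (0.170) and Fau (0.188). In WT they were Rpl10 (0.130), Rpl39 (0.051), Rps27 (0.172), Rpl3 (0.240), Rpl13a (0.022), Rps2 (0.063), Rplp1 (0.551), Rpsa (0.189), Rps27a (0.343) and Fau (0.070). Other members turned too, and those called higher included Rps28 (0.76 in GLP 3A and 0.56 in WT), Rpl23a (0.66 and 0.54), Rpl23 (0.52 and 0.52) and Rps15 (0.51 and 0.46) in both genotypes, Rpl19 (0.52) in GLP 3A and Rpl41 (0.67) in WT. At the same sum of RPKM the genes with printed tests that turned were in GLP 3A Rpl39l (0.349), Rpl10l (0.045), Rpl10 (0.034), Rps27 (0.154), Rps27l (0.104), Rpl26 (0.117), Rpsa (0.185), Rplp2 (0.039), Rps27a (0.212) and Hnrnpa1 (0.305), and in WT Rps27 (0.032), Rplp1 (0.069), Rpsa (0.072) and Rps27a (0.128). At the same ribosomal protein median they were in GLP 3A Rpl39l (0.385), Rpl10l (0.086), Rpl10 (0.075), Rps27 (0.195), Rps27l (0.145), Rpl26 (0.158), Rpsa (0.226), Rplp2 (0.080), Rps27a (0.253) and Hnrnpa1 (0.346), and in WT Rps27 (0.153), Rpl3 (0.098), Rplp1 (0.189), Rpsa (0.192) and Rps27a (0.249). Between the genotypes Rpl39 turned to 0.053 with RA under quantile normalization, and to 0.077 with RA and 0.009 untreated at the same ribosomal protein median.

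Genotype counts were small and moved readily, and the shares of all genes called under these settings are not given here. With RA, 0 were called lower without a filter, and 0 higher and 0 lower with 4 libraries, while 3 were called higher at the same ribosomal protein median. The median with RA was -0.179 with a pseudocount of 0.1 and with a filter of 5 RPKM, -0.173 without a filter, -0.206 with median-of-ratios, -0.015 with quantile normalization, -0.094 at the same sum and -0.005 at the same ribosomal protein median. Untreated, 0 were called lower without a filter, 3 with median-of-ratios scaling and 3 at the same sum, 4 higher and 4 lower with 4 libraries, and 2 higher at the same ribosomal protein median. The untreated median was -0.064 with a filter of 5 RPKM, -0.108 with median-of-ratios, -0.104 with quantile normalization, -0.138 at the same sum and 0.032 at the same ribosomal protein median. For the difference of responses, 1 member was called higher with a pseudocount of 0.1 and 1 at the same sum, and the median was 0.084 with quantile normalization, 0.076 at the same sum and -0.003 at the same ribosomal protein median.

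With each of the 8 libraries left out in turn, 64 to 75 members were called lower with RA in GLP 3A (median -0.741 to -0.652) and 58 to 74 in WT (-0.647 to -0.567), with 0 higher in either. Between the genotypes with RA, 1 to 2 were called higher and 0 to 3 lower (-0.205 to -0.137), and untreated 1 to 3 higher and 0 to 2 lower (-0.065 to -0.049). For the difference of responses 0 to 1 were called higher and 0 lower (-0.127 to -0.057). Over these fits the RA difference in GLP 3A ran from -1.198 to 0.380 for Rpl10l, from -0.075 to 0.114 for Tpt1 and from -0.082 to 0.229 for Mrpl41, each turning sign without RA-treated GLP 3A replicate 2. The difference of responses of Rpl10l ran from -0.268 to 1.309 and turned sign without RA-treated GLP 3A replicate 1. With the replicate number as a block, 2 members were called lower and 1 higher untreated, 3 and 1 with RA, and 76 and 73 lower with RA in GLP 3A and WT. The shares of all genes called without a library or under the block are not given here. Equal counts hid changed calls under the block. Rplp1 was not called between the genotypes with RA (adjusted p = 0.0597) nor with RA in WT (0.0646), while Rpl37a was called lower in GLP 3A with RA (0.0428) and untreated (0.0419), and Rps23 lower (0.0214) and Tpt1 higher (0.0444) with RA in WT. Deviations of same-numbered libraries correlated at 0.169 to 0.355 across genes, over only 2 numbers, and the labels do not say that a number marks a shared culture or day.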
